A study of Mus musculus with 36 samples.

Results

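The endothelial genes of the lung were followed as a set of 33 genes named by symbol: receptors for angiopoietins and vascular endothelial growth factors (VEGF), junction and surface proteins, leukocyte adhesion molecules, haemostasis and surface enzyme genes, peptide and lipid receptors, transcription factors and lymphatic genes. All 33 were measured on the Affymetrix mouse genome array, among 18193 named genes, and where several probe sets read a gene, the one of highest mean stands for it. Of the 33 members, 31 were among the 11599 genes tested, which had a log2 intensity over 5 in at least 3 arrays. The other 2, Sele (E-selectin, an adhesion molecule of activated endothelium) and Prox1 (the transcription factor of lymphatic endothelium), read 2.19 to 2.45 and 2.43 to 4.00 and were not tested.

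The study compared whole lungs of mice in a chronic ovalbumin (OVA) model of severe asthma, 1 array per sample. OVA mice received 3 intraperitoneal injections of 50 µg OVA and then 20 µg OVA into the nose each week for 9 weeks, and the control mice received phosphate-buffered saline (PBS) on that schedule. All mice were female, on the C57BL/6 background and age-matched, with no age given. KitWsh_MCifngR, KitWsh_MCigeR and KitWsh_MC mice are KitWsh mice with an engraftment labelled MCifngR, MCigeR or MC, and KitWsh mice, which carry the sash mutation at Kit and are known to lack mast cells, have an engraftment label of none. WT mice are wild type. Every OVA group had 4 arrays, the WT PBS group had 4 and every other PBS group had 3. The sources used here do not say what the engraftment codes stand for, and the genotype label of the MCigeR mice also names FcεRIγ-/-, so that recipient and engrafted cells cannot be told apart there. The host of all 3 engrafted kinds carries the Kit mutation too. Nothing in the labels ties each array to an animal of its own, so the p-values cover only the spread among these arrays, whose number per group, 3 or 4, limits the precision.

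Endothelial cells line every vessel of the lung, and the dense alveolar capillary bed makes them one of its most frequent cell types. Angiopoietin acting on Tek (Tie2) and sphingosine 1-phosphate acting on S1pr1 keep the junctions between them closed, and the ETS factors Erg and Fli1 with the SOX factors Sox17 and Sox18 maintain their identity. In allergic inflammation endothelium displays P-selectin (Selp) and Vcam1, which slow and hold leukocytes before they leave the blood, and the junctions loosen.

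One array stood apart before any comparison was made. KitWsh_MCigeR PBS array 2, called the degraded array below, had a median correlation of 0.543 with the others across tested genes, where the other 35 had 0.882 to 0.971, and a beta-actin 3' to 5' control difference, which grows as RNA breaks down, of 8.43, where the others had 1.17 to 6.23. Its 3' to 5' difference on the Gapdh control was 3.66, within the 0.37 to 7.51 of the others. In the degraded array 25 of the 31 tested members read lower than in all 35 other arrays, among them Pecam1 (2.78), Gpihbp1 (2.84), Sox18 (3.04) and Vwf (4.76), and Aplnr (11.75) and Sox17 (11.50) read higher than in all 35. Every comparison is therefore given with all 36 arrays and with the 35 others. All groups share 1 estimate of the spread of a gene. Where a gene reads far from its group in the degraded array, that array thus widens its standard errors in all comparisons. The degraded array also moves the log2 difference itself where KitWsh_MCigeR PBS mice or the mean of the 5 kinds are involved. Kit, the mutated gene, read 9.86 to 11.0 in 7 of the 8 arrays labelled WT and 6.90 in the array labelled WT OVA 4, and 4.52 to 7.52 in the arrays of KitWsh mice. Mean Y-linked expression was 7.28 in the array labelled WT OVA 4 and 7.71 and 7.30 in those labelled KitWsh_MCifngR OVA 2 and 3, against at most 2.66 elsewhere, although all mice are labelled female, so results that rest on these 3 arrays are also given without them, in a fit that leaves out the degraded array too.

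The defining endothelial markers were well measured: in the 35 arrays Pecam1 read 7.03 to 11.9, Cdh5 9.85 to 11.7, Tek 9.62 to 12.2, Tie1 8.74 to 10.5, Erg 6.39 to 9.94 and Cldn5 11.7 to 12.7. Mean log2 intensities over the 36 arrays ran from 5.73 for Selp and 7.52 for Apln (apelin, a peptide ligand) to 12.8 for Thbd (thrombomodulin) and 13.5 for Calcrl (a receptor for adrenomedullin). Probe sets differ in their response, so these levels do not order the genes. Whole lung was measured, and fewer endothelial cells and less RNA per endothelial cell cannot be told apart.

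The promoters of the members were searched for the letters of ETS and SOX factor sites, which their choice did not use. RefSeq promoter windows of 250 bases before the start site (mouse build GRCm38.p6) were matched for 17 of the 33 members, 23 windows in all. The letters of an ETS core, AGGAAG or its complement CTTCCT, stood in 14 of the 23 windows (60.9%), against 29.5% of the 32851 windows of all genes, and those of a SOX site, AACAAT or ATTGTT, in 4 (17.4%), against 9.42%. The 4 windows below belong to members whose values the results turn on, with ETS and SOX letters in capitals. Emcn (endomucin) and Erg hold both, Tek holds the SOX letters and Selp the ETS letters. A match describes these letters and is no binding site.
Emcn (chr3:137340828-137341077, + strand): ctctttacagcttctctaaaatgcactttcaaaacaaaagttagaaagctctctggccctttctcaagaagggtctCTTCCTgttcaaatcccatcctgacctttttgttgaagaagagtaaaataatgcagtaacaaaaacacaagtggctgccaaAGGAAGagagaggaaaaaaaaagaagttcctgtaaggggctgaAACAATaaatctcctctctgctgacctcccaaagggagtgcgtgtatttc
Erg, 1 of its 3 starts (chr16:95459349-95459598, - strand): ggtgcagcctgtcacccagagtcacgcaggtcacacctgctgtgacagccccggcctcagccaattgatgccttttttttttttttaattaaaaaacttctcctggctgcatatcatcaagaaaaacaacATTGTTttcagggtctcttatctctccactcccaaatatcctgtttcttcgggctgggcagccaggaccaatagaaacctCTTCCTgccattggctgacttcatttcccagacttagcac
Tek (chr4:94739039-94739288, + strand): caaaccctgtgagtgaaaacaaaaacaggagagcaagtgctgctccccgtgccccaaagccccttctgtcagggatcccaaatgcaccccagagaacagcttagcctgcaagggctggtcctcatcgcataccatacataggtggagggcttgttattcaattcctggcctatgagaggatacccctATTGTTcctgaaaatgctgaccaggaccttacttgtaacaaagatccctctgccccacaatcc
Selp (chr1:164115014-164115263, + strand): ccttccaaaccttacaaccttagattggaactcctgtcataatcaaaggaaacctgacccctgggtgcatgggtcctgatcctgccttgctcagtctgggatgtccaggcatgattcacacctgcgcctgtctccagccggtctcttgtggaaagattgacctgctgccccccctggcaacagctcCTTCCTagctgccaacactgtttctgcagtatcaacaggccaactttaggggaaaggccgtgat

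Over the mean of the 5 kinds of mice, OVA lungs differed from PBS lungs in few endothelial genes. With all 36 arrays, P-selectin rose (0.44 ± 0.15, adjusted p = 0.0459; log2 difference of OVA minus PBS ± SE from limma) and the apelin receptor Aplnr (-0.64 ± 0.16, adjusted p = 0.00685) and Sox17 (-0.36 ± 0.11, adjusted p = 0.025) fell. These were 1 of 31 members higher, where 8.79% of all tested genes were called higher, and 2 lower, where 7.8% were. With the 35 arrays, 3 members rose and 4 fell, against 12.2% and 15.3% of all genes, so the share of members called was no larger than that of other genes. The median difference of the members was -0.05, beside -0.02 over all genes, with the 35 arrays, and 0.19 beside 0.06 with all 36. The 3 that rose were Selp, Vcam1 and Ace, and the 4 that fell were Aplnr, Sox17, Tek and Eng.

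The 2 tested genes for inducible leukocyte adhesion both rose with the 35 arrays, Selp (0.50 ± 0.15, adjusted p = 0.0125) and Vcam1 (0.19 ± 0.07, adjusted p = 0.0406). Selp read 6.95, 5.74, 5.45 and 5.06 in WT OVA lungs, against 5.58, 5.25, 5.62 and 5.59 in WT PBS lungs, and 5.70, 5.78, 5.42 and 5.61 in KitWsh OVA lungs, against 5.21, 5.65 and 5.21 in KitWsh PBS lungs. It read 5.98, 6.27, 7.21 and 6.10 in KitWsh_MC OVA lungs, against 5.25, 5.51 and 5.21 in KitWsh_MC PBS lungs, and 5.78, 5.87, 5.76 and 7.04 in KitWsh_MCifngR OVA lungs, against 5.58, 5.59 and 5.60 in KitWsh_MCifngR PBS lungs. In KitWsh_MCigeR mice OVA lungs had 6.02, 5.12, 5.86 and 5.71, against 5.16 and 5.51 in PBS arrays 1 and 3 and 6.25 in the degraded array. Selp, whose protein is stored in endothelial granules and platelets, was higher in all 4 OVA arrays than in all 3 PBS arrays of KitWsh_MC mice and of KitWsh_MCifngR mice, and the groups overlapped in WT, KitWsh and KitWsh_MCigeR mice. Its other 2 probe sets, with low means of 2.63 and 2.25, differed by 0.30 and 0.09. In WT mice Vcam1 was at 10.83, 10.56, 10.52 and 10.35 in OVA lungs, against 10.87, 10.94, 10.81 and 10.74 in PBS lungs, and in KitWsh mice at 10.84, 10.94, 10.70 and 11.12 in OVA lungs, against 10.87, 10.72 and 10.42 in PBS lungs. KitWsh_MC mice had 11.07, 11.01, 11.17 and 11.12 in OVA lungs, against 10.28, 10.54 and 10.49 in PBS lungs, and KitWsh_MCifngR mice had 10.99, 10.88, 10.95 and 11.49 in OVA lungs, against 10.95, 10.88 and 10.83 in PBS lungs. The KitWsh_MCigeR OVA lungs read 11.27, 10.67, 10.86 and 11.20, against 10.81 and 10.91 in PBS arrays 1 and 3 and 6.79 in the degraded array. Vcam1, the partner of alpha4 integrins on eosinophils and lymphocytes, was higher in KitWsh_MC OVA lungs with no overlap, while 3 of the 4 WT OVA arrays read below all WT PBS arrays. Its other 2 probe sets differed by 0.21 and 0.25. The call on Vcam1 was lost (adjusted p up to 0.0817) without any 1 of 15 of the 35 arrays (WT OVA 1 or 2, WT PBS 3 or 4, KitWsh OVA 2 or 4, KitWsh PBS 3, KitWsh_MC PBS 1, KitWsh_MCifngR OVA 4 or PBS 2 or 3, KitWsh_MCigeR OVA 1 or 4 or PBS 1 or 3), and with all 36 arrays its adjusted p was 0.147.

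Ace, angiotensin-converting enzyme on the capillary surface, was the third member that rose with the 35 arrays (0.30 ± 0.10, adjusted p = 0.0311; adjusted p = 0.0715 with all 36). Ace read 11.13, 11.15, 11.21 and 11.66 in WT OVA lungs, against 10.42, 10.26, 10.46 and 10.90 in WT PBS lungs, and 11.16, 11.15, 11.45 and 11.12 in KitWsh OVA lungs, against 10.77, 10.91 and 11.41 in KitWsh PBS lungs. It read 11.18, 10.75, 10.22 and 10.93 in KitWsh_MC OVA lungs, against 10.77, 11.14 and 10.70 in KitWsh_MC PBS lungs, and 10.57, 10.86, 10.91 and 10.46 in KitWsh_MCifngR OVA lungs, against 10.79, 10.89 and 10.81 in KitWsh_MCifngR PBS lungs. In KitWsh_MCigeR mice OVA lungs had 11.59, 11.79, 10.58 and 11.36, against 10.59 and 10.54 in PBS arrays 1 and 3 and 7.08 in the degraded array. WT OVA arrays lay above all WT PBS arrays, and the groups overlapped in the 4 other kinds. Its second probe set differed by 0.52. The call was lost without KitWsh_MC PBS array 3, KitWsh_MCigeR PBS array 3 or KitWsh PBS array 1 (adjusted p up to 0.0676), and without the 3 arrays of doubtful label (0.24, adjusted p = 0.0911).

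Aplnr, the receptor through which apelin acts on vessels, fell with 36 and with 35 arrays (-0.50 ± 0.12, adjusted p = 0.00363 with 35). In WT mice Aplnr was at 10.35, 10.89, 10.60 and 10.08 in OVA lungs, against 11.60, 11.48, 11.42 and 11.37 in PBS lungs, and in KitWsh mice at 10.24, 10.14, 10.24 and 10.45 in OVA lungs, against 10.51, 10.38 and 9.80 in PBS lungs. KitWsh_MC mice had 10.20, 10.28, 9.98 and 9.63 in OVA lungs, against 10.64, 10.35 and 10.34 in PBS lungs, and KitWsh_MCifngR mice had 10.11, 8.52, 9.87 and 9.64 in OVA lungs, against 10.40, 9.96 and 10.72 in PBS lungs. The KitWsh_MCigeR OVA lungs read 9.00, 9.91, 9.18 and 9.51, against 9.52 and 9.90 in PBS arrays 1 and 3 and 11.75 in the degraded array. In WT and KitWsh_MC mice every OVA array lay below every PBS array, and the groups overlapped in the other 3 kinds without the degraded array. Its second probe set differed by -0.32. Sox17, an arterial transcription factor, also fell with 36 and with 35 arrays (-0.30 ± 0.10, adjusted p = 0.0277 with 35). Sox17 read 9.62, 10.02, 10.17 and 10.92 in WT OVA lungs, against 10.21, 10.30, 10.70 and 10.18 in WT PBS lungs, and 10.59, 10.29, 10.76 and 10.31 in KitWsh OVA lungs, against 11.17, 11.00 and 11.02 in KitWsh PBS lungs. It read 10.17, 10.58, 10.47 and 9.94 in KitWsh_MC OVA lungs, against 10.31, 10.83 and 10.74 in KitWsh_MC PBS lungs, and 11.09, 10.85, 10.52 and 10.19 in KitWsh_MCifngR OVA lungs, against 11.00, 11.03 and 10.61 in KitWsh_MCifngR PBS lungs. In KitWsh_MCigeR mice OVA lungs had 10.45, 10.52, 10.44 and 10.38, against 10.55 and 10.79 in PBS arrays 1 and 3 and 11.50 in the degraded array. The OVA arrays lay below all PBS arrays in KitWsh and KitWsh_MCigeR mice and overlapped with them in the other 3 kinds. The direction for Sox17 holds for 1 of its 2 probe sets: the second, with the lower mean of 7.75, differed by 0.41. The call on Sox17 was lost without KitWsh_MCigeR PBS array 3 (adjusted p = 0.0785 with 34 arrays).

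Tek, the angiopoietin receptor, fell with the 35 arrays (-0.41 ± 0.12, adjusted p = 0.0117), and with all 36 arrays its difference was -0.07 ± 0.28 (adjusted p = 0.873). In WT mice Tek was at 11.13, 11.18, 11.52 and 12.10 in OVA lungs, against 12.14, 11.96, 12.01 and 12.18 in PBS lungs, and in KitWsh mice at 11.52, 11.17, 12.12 and 11.45 in OVA lungs, against 11.88, 12.02 and 12.00 in PBS lungs. KitWsh_MC mice had 10.94, 9.62, 10.82 and 11.14 in OVA lungs, against 11.60, 11.64 and 11.82 in PBS lungs, and KitWsh_MCifngR mice had 12.07, 11.75, 11.99 and 11.28 in OVA lungs, against 11.80, 11.70 and 11.52 in PBS lungs. The KitWsh_MCigeR OVA lungs read 11.34, 11.54, 11.59 and 11.76, against 11.49 and 11.79 in PBS arrays 1 and 3 and 6.66 in the degraded array. In WT mice and in KitWsh mice 3 of the 4 OVA arrays read below all PBS arrays, and in KitWsh_MC mice all 4 did. Eng, endoglin, a coreceptor for transforming growth factor beta and bone morphogenetic proteins, fell likewise with the 35 arrays (-0.37 ± 0.08, adjusted p = 0.00178; adjusted p = 0.21 with all 36). Eng read 9.81, 9.44, 9.94 and 10.21 in WT OVA lungs, against 10.43, 10.21, 10.28 and 10.64 in WT PBS lungs, and 10.08, 9.70, 10.06 and 9.85 in KitWsh OVA lungs, against 10.58, 10.62 and 10.51 in KitWsh PBS lungs. It read 9.43, 9.78, 9.48 and 9.83 in KitWsh_MC OVA lungs, against 10.43, 10.25 and 10.32 in KitWsh_MC PBS lungs, and 10.34, 10.65, 10.94 and 9.86 in KitWsh_MCifngR OVA lungs, against 10.32, 10.47 and 10.12 in KitWsh_MCifngR PBS lungs. In KitWsh_MCigeR mice OVA lungs had 10.17, 10.40, 10.26 and 10.37, against 10.41 and 10.42 in PBS arrays 1 and 3 and 8.43 in the degraded array. Eng was lower without overlap in KitWsh and KitWsh_MC mice, the KitWsh_MCigeR groups overlapped through the degraded array and did not without it, and the WT groups met at 10.21. Its second probe set, with a mean of 10.07 against 10.14, differed by -0.04, and on the mean of both Eng did not pass (-0.20 ± 0.10, adjusted p = 0.128). On probe-set means Sox17 (0.05) and Vcam1 (0.22) did not pass either with the 35 arrays, and Tek, Selp, Ace and Aplnr did. Tek, Eng, Selp and Aplnr kept their calls without each of the 35 arrays in turn, and without the 3 arrays of doubtful label as well. Without those 3, 9 members were called (2 rose, 7 fell), where 1711 of the 11599 genes rose and 1911 fell. Flt1 (-0.31), Cldn5 (-0.25) and Icam2 (-0.37) joined those that fell, and Ace was lost.

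**Figure D1:**
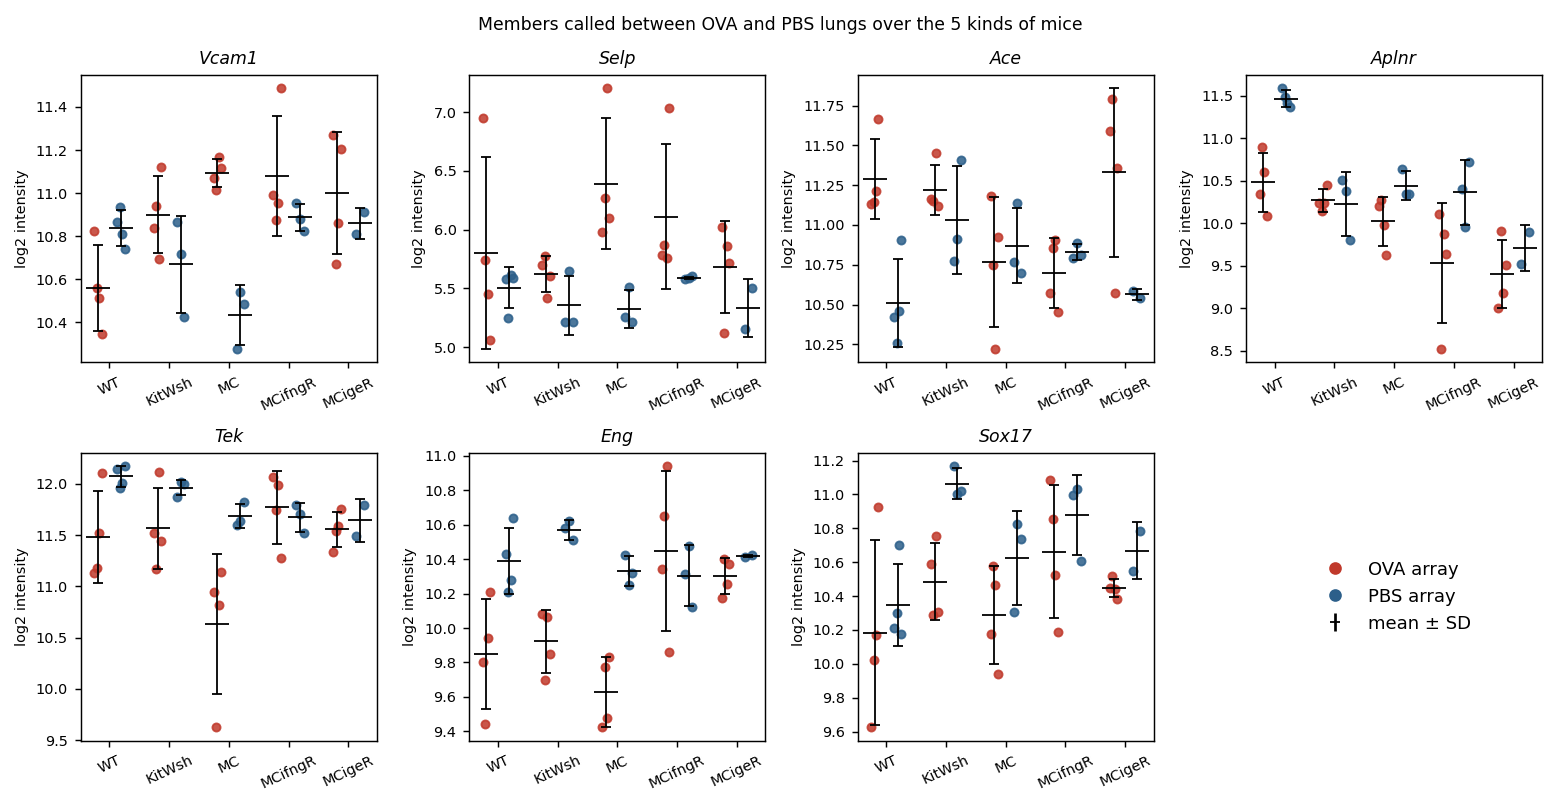
Log2 intensity of the 7 members called between OVA and PBS lungs over the 5 kinds of mice; each point is 1 array, with OVA left of PBS for each kind, the degraded array left out, and bars showing mean ± SD. Selp and Vcam1 stand higher and Tek and Eng lower in the 4 KitWsh_MC OVA arrays than in the 3 KitWsh_MC PBS arrays.

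Kind by kind with all 36 arrays, no member passed the test in WT, KitWsh, KitWsh_MC or KitWsh_MCifngR mice, where 1.36%, 0.621%, 6.52% and 0.155% of all genes did. Limma's unadjusted p was under 0.05 there for 1, 3, 3 and 1 of the 31 members, and for 15.5%, 13.1%, 20.1% and 5.42% of all genes. With the 35 arrays, KitWsh_MC mice had the most: 2 members rose, where 10.7% of all genes did, and 4 fell, where 9.8% did. Vcam1 (0.66 ± 0.15, adjusted p = 0.00341) and Selp (1.06 ± 0.32, adjusted p = 0.021) rose, and Tek (-1.05 ± 0.26, adjusted p = 0.00578), Eng (-0.70 ± 0.18, adjusted p = 0.00815), S1pr1 (-0.98 ± 0.34, adjusted p = 0.0423) and Nrp1 (-0.43 ± 0.13, adjusted p = 0.0219) fell. S1pr1, the sphingosine 1-phosphate receptor, read 7.92, 7.04, 8.36 and 8.85 in KitWsh_MC OVA lungs, against 8.84, 8.79 and 9.43 in KitWsh_MC PBS lungs. Nrp1, a coreceptor for VEGF and semaphorins, read 11.72, 11.79, 11.78 and 11.66 in KitWsh_MC OVA lungs, against 12.34, 12.12 and 12.04 in KitWsh_MC PBS lungs. The groups did not overlap for Nrp1, and for S1pr1 the highest OVA array lay among the PBS arrays. In all, 29 of the 31 members read lower in KitWsh_MC OVA lungs than in KitWsh_MC PBS lungs, with a median of -0.35, beside 0.01 over all genes. KitWsh_MC OVA array 2 had a beta-actin 3' to 5' difference of 6.23, against 2.33 to 3.41 in the KitWsh_MC PBS arrays, while the other 3 OVA arrays had 2.21 to 2.61. Without it 25 members read lower and the median was -0.19, beside 0.04 over all genes, with Tie1 (0.01), Flt1 (0.04), Pecam1 (0.17) and Vwf (0.17) among the 6 that read higher. By the test 2 members rose and 3 fell. Shares of all genes called are not given for that fit, so these calls cannot be set against genes at large. With the control difference as a covariate in the 35-array fit, the 6 called members kept their calls. They were Tek (-0.96), Eng (-0.71), S1pr1 (-0.84), Nrp1 (-0.44), Vcam1 (0.67) and Selp (1.08). The part of RNA quality in the shift of the members as a set was not tested. Tek, Eng and Vcam1 kept their calls without each further array in turn. S1pr1 lost its call without OVA array 1 or 2 or any 1 of the 3 PBS arrays (adjusted p up to 0.193), Selp without OVA array 3 or PBS array 1 or 3 (up to 0.0782) and Nrp1 without PBS array 1 (0.11). For Eng the other probe set differed by -0.16 and for Vcam1 the other 2 by 0.22 and 0.17, and on probe-set means neither passed (-0.43 ± 0.22, adjusted p = 0.159, and 0.35 ± 0.22, adjusted p = 0.265), while Thbd (-0.60) and Erg (-1.37) fell. Erg gave -0.93 on its probe set of highest mean and -1.80 on the other, with a low mean of 3.83. Without the 3 arrays of doubtful label 8 members were called, with Icam2 (-0.58) and Thbd (-0.60) beside those 6. In that fit 1387 of the 11599 genes rose and 1269 fell.

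In WT mice with the 35 arrays, Ace rose (0.78 ± 0.21, adjusted p = 0.0229), 1 member where 3.97% of all genes were higher, and Aplnr (-0.98 ± 0.25, adjusted p = 0.0163) and Eng (-0.54 ± 0.17, adjusted p = 0.0426) fell, 2 members where 5.35% were lower. The second probe set of Eng went the other way in WT mice (0.14), and on the mean of both Eng did not pass (-0.20 ± 0.21, adjusted p = 0.547), while Ace and Aplnr did. Without the array labelled WT OVA 4 and the other arrays of doubtful label, 1146 of the 11599 genes rose and 1046 fell. The calls on Ace, Aplnr and Eng stood there, among 5, at 0.65, -0.85 and -0.66, with Tek (-0.79) and Cldn5 (-0.41) as the other 2. With the 35 arrays these 3 calls were sensitive to single arrays: Aplnr lost its call without WT OVA array 1 or WT PBS array 1 (adjusted p up to 0.0567), Ace without WT OVA array 2 or WT PBS array 1, 2 or 3 (up to 0.0808), and Eng without any 1 array other than the one labelled WT OVA 4 (up to 0.191). In KitWsh mice with the 35 arrays only Eng passed, lower in OVA lungs (-0.65 ± 0.18, adjusted p = 0.0347), where 5.16% of all genes were lower. That call was lost without KitWsh OVA array 2 or 4 or any KitWsh PBS array (adjusted p up to 0.14), and on the mean of both probe sets (-0.44 ± 0.22, adjusted p = 0.263). Without the 3 arrays of doubtful label Eng, Cldn5 (-0.47) and Apln (-0.81) fell in KitWsh mice, where 827 of the 11599 genes fell. KitWsh_MCifngR mice had no called member with 35 arrays either, where 0.776% of all genes were called. Limma's unadjusted p was under 0.05 for 3 members and for 12.0% of all genes. The largest member differences in these mice were -0.83 ± 0.27 for Aplnr and 0.80 ± 0.34 for S1pr1 (adjusted p of 0.155 and 0.333). Without the 2 arrays of doubtful label in that group 0 members passed as well. There 5 members and 16.3% of all genes had an unadjusted p under 0.05 by limma, and 193 of the 11599 genes were called.

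In KitWsh_MCigeR mice the count rested on the degraded array. With all 36 arrays, 10 members rose and none fell, where 16% of all genes were called higher: Tie1, Flt4, Pecam1, Cdh5, Vcam1, Vwf, Ace, Ramp2, Sox18 and Egfl7 (Vcam1 and Ace by array above). With the 35 arrays none of the 31 passed, nor did any of the 11599 genes (0%), and 3 members and 737 genes had an unadjusted p under 0.05 by limma. Pecam1, the platelet and endothelial adhesion molecule of cell borders, read 11.17, 10.54, 10.75 and 11.06 in OVA lungs, against 10.03 and 10.56 in PBS arrays 1 and 3 and 2.78 in the degraded array, and its difference was 3.09 ± 0.99 with all 36 arrays and 0.58 ± 0.55 with 35. Vwf, the clotting protein of endothelial granules, read 12.64, 12.54, 12.58 and 12.56 in OVA lungs, against 12.48 and 12.45 in PBS arrays 1 and 3 and 4.76 in the degraded array. Cdh5, the cadherin of endothelial junctions, read 11.41, 11.48, 10.66 and 10.94 in OVA lungs, against 10.25 and 10.49 in PBS arrays 1 and 3 and 8.75 in the degraded array. Without the degraded array Vwf was higher in all OVA arrays by 0.11 ± 0.21 and Cdh5 by 0.75 ± 0.24 (adjusted p = 0.627). Tie1, the partner of Tek, read 10.48, 10.16, 9.57 and 9.78 in OVA lungs, against 9.79 and 9.62 in PBS arrays 1 and 3 and 3.59 in the degraded array. Flt4, the receptor for VEGF-C, read 9.21, 9.00, 8.04 and 8.57 in OVA lungs, against 8.15 and 7.82 in PBS arrays 1 and 3 and 5.18 in the degraded array. Both spans overlapped once the degraded array was left out. Ramp2, the accessory protein of Calcrl, read 12.32, 12.21, 11.68 and 12.10 in OVA lungs, against 11.86 and 12.09 in PBS arrays 1 and 3 and 6.31 in the degraded array. Sox18 read 11.05, 10.90, 10.51 and 10.61 in OVA lungs, against 10.31 and 10.22 in PBS arrays 1 and 3 and 3.04 in the degraded array. Egfl7, a secreted regulator of vessel sprouting, read 12.01, 12.19, 11.61 and 11.92 in OVA lungs, against 11.81 and 11.90 in PBS arrays 1 and 3 and 8.67 in the degraded array. Of these 3, Sox18 was the one without overlap in the 35 arrays.

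The differences in response between kinds were tested directly, as interaction contrasts, with 0 members called in KitWsh minus WT, KitWsh_MC minus KitWsh and KitWsh_MCifngR minus KitWsh_MC mice. With all 36 arrays, 0.00862%, 0.517% and 0.0345% of all genes were called in these contrasts, and with 35 arrays 0.181%, 5.53% and 1.48%. Limma's unadjusted p was under 0.05 for 3, 1 and 2 of the 31 members with all 36 arrays, and for 6.74%, 11.6% and 10.1% of all genes. With 35 arrays it was for 5, 4 and 8 members, and for 14.2%, 22.7% and 20.9% of all genes. The nearest to a call was S1pr1 in the last of the 3, where its OVA minus PBS difference was 0.80 in KitWsh_MCifngR mice and -0.98 in KitWsh_MC mice, a gap of 1.78 ± 0.49 (adjusted p = 0.0547). The larger number of calls among KitWsh_MC mice is thus not shown to differ from that among KitWsh or KitWsh_MCifngR mice. On probe-set means Erg was called in KitWsh_MC minus KitWsh (-2.31 ± 0.56, adjusted p = 0.0192), where its probe set of highest mean gave -1.06. That call rests on its other probe set, with a low mean of 3.83. There OVA minus PBS was -1.80 in KitWsh_MC and 1.75 in KitWsh mice.

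Of 35 further endothelial genes tested, which are no members, 1 rose and 9 fell over the mean of the 5 kinds with the 35 arrays (0 and 2 with all 36), with a median of -0.17. Those with the smallest adjusted p were Bmpr2 (-0.32 ± 0.07, adjusted p = 0.00169), the receptor gene mutated in hereditary pulmonary hypertension, Kdr (-0.38 ± 0.09, adjusted p = 0.00207), the main VEGF receptor, Clec14a (-0.41 ± 0.10, adjusted p = 0.0039), an endothelial lectin, and Efnb2 (-0.42 ± 0.12, adjusted p = 0.00911), the arterial ephrin. Among 16 vascular ligands 5 fell and 0 rose (2 fell with all 36 arrays), among them both angiopoietins, Angpt1, which activates Tek (-0.56 ± 0.12, adjusted p = 0.00154), and Angpt2, which opposes it (-0.41 ± 0.11, adjusted p = 0.00516), the constrictor peptide Edn1 (-0.51 ± 0.14, adjusted p = 0.0102) and Vegfc (-0.31 ± 0.11, adjusted p = 0.0435). Of 9 leukocyte partners of the adhesion genes, 3 rose with the 35 arrays and with all 36: Cd44 (0.50 ± 0.08), the selectin ligand Selplg (0.59 ± 0.12) and the integrin chain Itgb2 (0.79 ± 0.20, all with the 35 arrays).

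Markers of other cells moved in the challenge comparison too; counts are with the 35 arrays, and those with all 36 follow in brackets. Of 8 pan-leukocyte genes 2 rose and 0 fell (2 and 0; median 0.34), among them Lcp1 (0.62 ± 0.12), and of 8 cell cycle genes 6 rose (5; median 0.68). Of 3 tested cytokines that act on endothelium 2 rose (2), Il6 (0.99 ± 0.21) and Osm (0.62 ± 0.14). Of 8 fibroblast genes 1 rose and 4 fell (1 and 1), of 10 smooth muscle and pericyte genes 1 fell (1), of 9 alveolar epithelial genes 1 fell (0), of 5 mesothelial genes 2 fell (0), of 5 platelet genes 1 fell (0) and of 8 cardiomyocyte genes 6 fell (1; median -0.72). The level of the pan-leukocyte list, as a mean log2 intensity per group, was 11.1 to 11.7 in the 5 OVA groups and 10.8 to 11.0 in the 4 PBS groups other than KitWsh_MCigeR. The 4 KitWsh_MCigeR OVA arrays had 10.9 to 11.4, against 11.6 and 10.6 in KitWsh_MCigeR PBS arrays 1 and 3 and 7.47 in the degraded array, so the OVA arrays lay between the first 2 PBS values. Their part in the endothelial differences was not tested.

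Among PBS lungs, which had received no OVA, KitWsh and WT mice differed in 0 members with all 36 arrays, where 1.18% of all genes were called. There 4 members and 12.2% of all genes had an unadjusted p under 0.05 by limma. With the 35 arrays, Cdh5 and Sox17 were higher in KitWsh mice, 2 members where 5.63% of all genes were higher, and Aplnr and Lyve1 were lower, 2 members where 2.29% were. Lyve1, a hyaluronan receptor of lymphatic endothelium that some macrophages also carry, read 10.59, 10.45 and 10.69 in KitWsh PBS lungs, against 12.28, 11.94, 11.71 and 11.80 in WT PBS lungs (-1.35 ± 0.28, adjusted p = 0.00413). Aplnr read 10.51, 10.38 and 9.80 in KitWsh PBS lungs, against 11.60, 11.48, 11.42 and 11.37 in WT PBS lungs (-1.24 ± 0.27, adjusted p = 0.00558). All KitWsh arrays lay below all WT arrays for both genes, about 2.56-fold for Lyve1 and 2.35-fold for Aplnr. Cdh5 read 11.24, 11.66 and 11.46 in KitWsh PBS lungs, against 10.54, 10.53, 10.50 and 10.29 in WT PBS lungs (0.98 ± 0.22, adjusted p = 0.00574). Sox17 read 11.17, 11.00 and 11.02 in KitWsh PBS lungs, against 10.21, 10.30, 10.70 and 10.18 in WT PBS lungs (0.72 ± 0.22, adjusted p = 0.0461). Here all KitWsh arrays lay above all WT arrays. Lyve1 kept its call without each further array. The other probe set differed by -1.40 for Lyve1, -0.41 for Aplnr, 0.14 for Cdh5 and 0.86 for Sox17, those of Aplnr and Cdh5 having low means of 5.73 and 3.62. On probe-set means Lyve1, Aplnr and Sox17 passed with the 35 arrays and Cdh5 did not (0.56 ± 0.28, adjusted p = 0.266), and with all 36 arrays none of the 4 passed (adjusted p from 0.0626 to 0.491). Cdh5 lost its call without KitWsh PBS array 2 (adjusted p = 0.0542), Aplnr without KitWsh PBS array 3 (0.0599), and Sox17 without WT PBS array 1, 2 or 4 or any KitWsh PBS array (up to 0.13).

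Kdr, which lies beside Kit on the chromosome, was higher in KitWsh than in WT PBS lungs with the 35 arrays (0.63 ± 0.19, adjusted p = 0.0385), one of 5 of the 35 further endothelial genes that were higher there and 0 lower. Among 5 tested platelet genes 3 were higher in KitWsh PBS lungs and 0 lower (2 with all 36 arrays), and the mean log2 intensity of that list was 7.48 to 8.16 in KitWsh PBS arrays, against 6.26 to 6.90 in WT PBS arrays. The beta-actin 3' to 5' difference was 1.74 to 2.48 in the KitWsh PBS arrays, against 1.17 to 1.77 in the WT PBS arrays. The part of platelets in the 4 calls was not tested. With that control difference as a covariate in the 35-array fit, Lyve1, Aplnr and Cdh5 kept their calls (-1.14, -1.37 and 1.03), and Sox17 had an adjusted p of 0.0577.

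KitWsh_MC and KitWsh PBS lungs differed in 1 member with all 36 arrays, where 0.526% of all genes were lower, and in 3 with the 35 arrays, where 8.63% were, all lower in KitWsh_MC mice. Apln read 7.25, 6.50 and 7.15 in KitWsh_MC PBS lungs, against 8.36, 8.12 and 7.90 in KitWsh PBS lungs (-1.16 ± 0.29, adjusted p = 0.0467 with all 36 arrays, adjusted p = 0.0105 with 35). Cdh5 read 10.60, 10.38 and 10.57 in KitWsh_MC PBS lungs, against 11.24, 11.66 and 11.46 in KitWsh PBS lungs (-0.94 ± 0.23, adjusted p = 0.0105 with 35). Emcn read 8.84, 8.73 and 9.61 in KitWsh_MC PBS lungs, against 10.29, 10.15 and 10.06 in KitWsh PBS lungs (-1.11 ± 0.34, adjusted p = 0.0325 with 35). Groups did not overlap for any of the 3. More broadly, 15 of the 31 members were lower without overlap in KitWsh_MC PBS lungs, but so were 30.6% of all genes, and the median of the members was -0.28, beside -0.14 over all genes. Cdh5, higher in KitWsh than in WT PBS lungs, averaged 10.51 ± 0.12 in KitWsh_MC PBS lungs (SD, n = 3) and 10.47 ± 0.12 in WT PBS lungs (SD, n = 4). Without KitWsh_MC PBS array 2 the calls on Apln and Cdh5 were lost (adjusted p up to 0.0873 and 0.0601), Apln also without KitWsh PBS array 1, and Emcn was lost without any 1 of 5 of the 6 arrays (up to 0.151). On probe-set means Cdh5 did not pass (-0.88 ± 0.30, adjusted p = 0.0539), and Esam and Sox17 were lower beside Apln and Emcn. Without the 3 arrays of doubtful label Pecam1 (-1.51), Esam (-0.46) and Sox18 (-0.83) were lower beside the 3 above, where 1095 of the 11599 genes were lower.

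**Figure D2:**
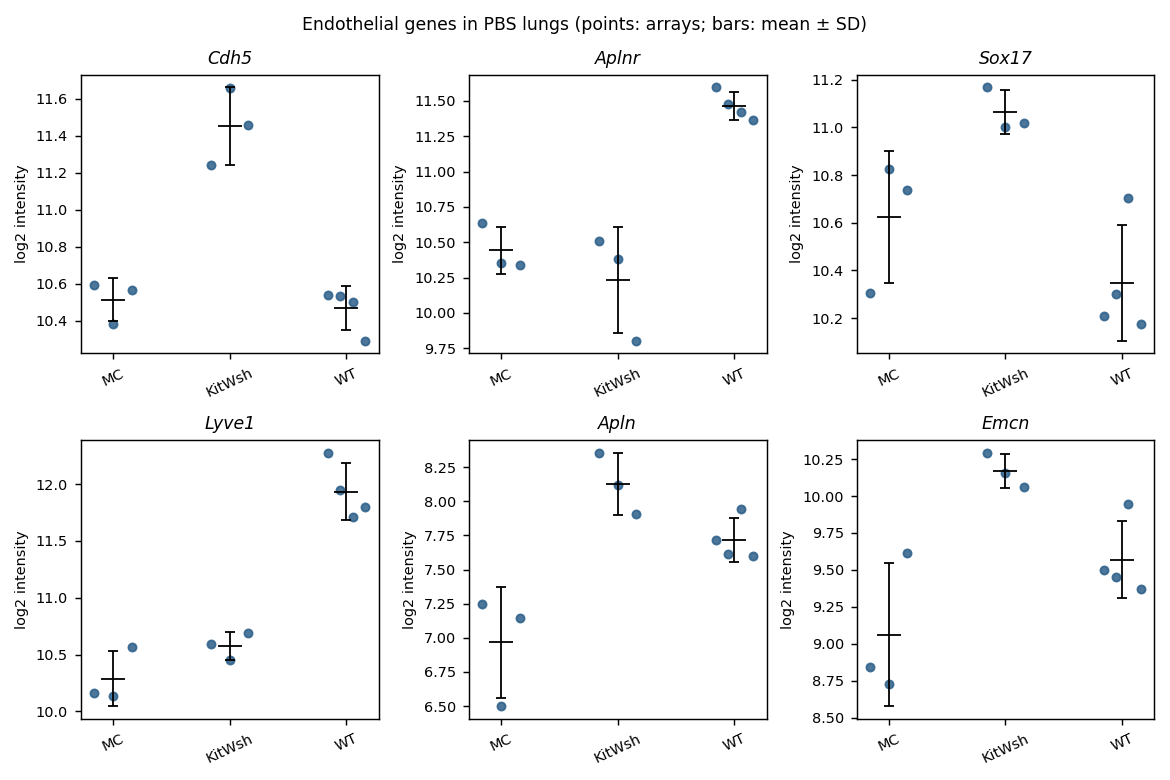
Log2 intensity of the 6 members called between kinds of PBS mice, with 1 point per array and bars for mean ± SD, in KitWsh_MC, KitWsh and WT lungs from left to right. Lyve1 and Aplnr lie lower, and Cdh5 and Sox17 higher, in all 3 KitWsh arrays than in all 4 WT arrays.

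Among OVA lungs, 0 of 31 members passed limma's test between KitWsh and WT mice with 36 or with 35 arrays, where 0.121% and 0.216% of all genes did. In these fits 1 and 3 members had an unadjusted p under 0.05 by limma, as did 4.89% and 9.04% of all genes. The differences of the members lay between -0.64 and 0.34, with a median of 0.02, beside 0.01 over all genes. Leaving out the arrays of doubtful label gave 0 calls as well, where 152 of the 11599 genes were called, with differences from -0.88 to 0.55. Lyve1 read 10.48, 10.68, 11.38 and 10.75 in KitWsh OVA lungs, against 11.35, 11.42, 11.83 and 11.26 in WT OVA lungs (-0.64 ± 0.26, adjusted p = 0.379), with overlapping groups.

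KitWsh_MC OVA lungs had lower levels of many endothelial genes than KitWsh OVA lungs. With all 36 arrays only Erg fell (-1.61 ± 0.48, adjusted p = 0.03), 1 member where 3.4% of all genes were lower. With the 35 arrays 15 of 31 members fell, where 16.6% of all genes were lower, and 0 rose, where 14.9% were higher. The median difference of the members was -0.49, beside -0.02 over all genes, and 10 members were lower without overlap, where 8.99% of all genes were. In KitWsh_MCifngR OVA lungs 11 of 31 members were called higher than in KitWsh_MC OVA lungs with the 35 arrays, a share near the 29.2% of all genes. In KitWsh_MCigeR OVA lungs 16 members were called higher, where 13.4% of all genes were. In either, 0 members were lower (7.47% and 7.6% of all genes). With all 36 arrays these counts were 1 (10.4% of all genes) and 0 (1.29%). Limma's unadjusted p was then under 0.05 for 5 and 9 members, and for 28.5% and 18.3% of all genes. The median of the members was 0.37 with MCifngR, beside 0.18 over all genes, and 0.56 with MCigeR, beside 0.06. Without overlap 2 members were higher with MCifngR, a smaller share than the 17.9% of all genes. With MCigeR 14 were, where 8.76% of all genes were. All 3 comparisons share the 4 KitWsh_MC OVA arrays, so they are not separate evidence, and the values below are given side by side; differences are from the 35 arrays unless said otherwise.

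Of the angiopoietin and VEGF receptors, Tek differed in all 3 comparisons. Tek read 12.07, 11.75, 11.99 and 11.28 in KitWsh_MCifngR and 11.34, 11.54, 11.59 and 11.76 in KitWsh_MCigeR OVA lungs. It read 10.94, 9.62, 10.82 and 11.14 in KitWsh_MC OVA lungs, against 11.52, 11.17, 12.12 and 11.45 in KitWsh OVA lungs. Its differences were 1.14 ± 0.24 for MCifngR and 0.92 ± 0.24 for MCigeR over MC, and -0.93 ± 0.24 for MC over KitWsh, each without overlap. Nrp1 read 12.19, 11.98, 11.84 and 11.48 in KitWsh_MCifngR and 12.02, 12.16, 11.97 and 12.04 in KitWsh_MCigeR OVA lungs. It read 11.72, 11.79, 11.78 and 11.66 in KitWsh_MC OVA lungs, against 12.09, 12.17, 12.16 and 12.00 in KitWsh OVA lungs. Nrp1 was lower in all 4 KitWsh_MC arrays than in all 4 KitWsh arrays (-0.37 ± 0.12, adjusted p = 0.0217). Its other probe sets differed more, by -0.83, -0.79 and -1.09. On probe-set means Nrp1 passed limma's test in all 3 comparisons. It was -0.77 ± 0.16 for MC over KitWsh (adjusted p = 0.00121), 0.69 ± 0.16 for MCifngR over MC (0.00221) and 0.79 ± 0.16 for MCigeR over MC (0.00243). Flt4 read 8.34, 7.96, 8.23 and 8.10 in KitWsh_MCifngR and 9.21, 9.00, 8.04 and 8.57 in KitWsh_MCigeR OVA lungs. It read 8.61, 8.29, 7.75 and 8.24 in KitWsh_MC OVA lungs, against 8.60, 8.69, 8.80 and 8.83 in KitWsh OVA lungs. Flt4 fell in KitWsh_MC against KitWsh lungs (-0.51 ± 0.20, adjusted p = 0.0452), with overlap. Flt1, a VEGF receptor that also traps its ligand, was called in none of the 3.

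Among the junction and surface genes Pecam1 had the largest difference of any member in these 3 comparisons with the 35 arrays. Pecam1 read 9.57, 10.68, 10.77 and 9.72 in KitWsh_MCifngR and 11.17, 10.54, 10.75 and 11.06 in KitWsh_MCigeR OVA lungs. It read 9.65, 7.03, 9.61 and 10.46 in KitWsh_MC OVA lungs, against 10.38, 11.08, 11.90 and 11.28 in KitWsh OVA lungs. KitWsh_MC array 2, at 7.03, was the lowest of the 35 arrays, and the other 3 read 9.61 to 10.46. The differences were 1.69 ± 0.45 for MCigeR over MC (adjusted p = 0.00975) and -1.97 ± 0.45 for MC over KitWsh (adjusted p = 0.00178, a 3.93-fold lower level), and the MC and KitWsh groups overlapped; without that array the second was -1.25 (adjusted p = 0.0095) and the first 0.97 (0.0603). Emcn, a mucin-like protein that hinders leukocyte adhesion, read 9.55, 8.96, 9.34 and 9.19 in KitWsh_MCifngR and 9.57, 8.76, 9.46 and 9.51 in KitWsh_MCigeR OVA lungs. It read 8.51, 7.24, 8.58 and 9.31 in KitWsh_MC OVA lungs, against 9.49, 10.01, 10.32 and 10.10 in KitWsh OVA lungs. Emcn was lower in every KitWsh_MC array than in every KitWsh array (-1.57 ± 0.29, adjusted p = 0.00041), and higher with MCifngR (0.85 ± 0.29) and MCigeR (0.91 ± 0.29) with overlap. Icam2, a ligand of the leukocyte integrin LFA-1, read 10.74, 11.87, 11.88 and 10.96 in KitWsh_MCifngR and 12.09, 12.11, 11.92 and 11.81 in KitWsh_MCigeR OVA lungs. It read 11.19, 10.36, 10.76 and 11.31 in KitWsh_MC OVA lungs, against 11.41, 11.82, 12.33 and 11.93 in KitWsh OVA lungs. Icam2 was without overlap lower in KitWsh_MC than in KitWsh lungs (-0.97 ± 0.24, adjusted p = 0.003) and higher with MCigeR (1.08 ± 0.24, adjusted p = 0.00297). Its KitWsh_MCifngR arrays fell into a higher pair, arrays 2 and 3, those of doubtful label, and a lower pair, arrays 1 and 4. The beta-actin 3' to 5' difference was 2.26 and 2.97 in the higher pair and 4.81 and 3.48 in the lower.

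Cdh5 and Eng differed less. Cdh5 read 10.94, 11.17, 11.34 and 10.56 in KitWsh_MCifngR and 11.41, 11.48, 10.66 and 10.94 in KitWsh_MCigeR OVA lungs. It read 10.58, 10.24, 9.85 and 10.82 in KitWsh_MC OVA lungs, against 10.79, 10.76, 11.42 and 11.15 in KitWsh OVA lungs. Cdh5 overlapped in all 3 comparisons and passed in each (0.63 ± 0.20, 0.75 ± 0.20 and -0.66 ± 0.20 for MCifngR over MC, MCigeR over MC and MC over KitWsh). Eng read 10.34, 10.65, 10.94 and 9.86 in KitWsh_MCifngR and 10.17, 10.40, 10.26 and 10.37 in KitWsh_MCigeR OVA lungs. It read 9.43, 9.78, 9.48 and 9.83 in KitWsh_MC OVA lungs, against 10.08, 9.70, 10.06 and 9.85 in KitWsh OVA lungs. Eng was the 1 member that passed with all 36 arrays for MCifngR over MC (0.82 ± 0.28, adjusted p = 0.0463), rose also with MCigeR (0.67 ± 0.17, adjusted p = 0.00765), and did not pass for MC over KitWsh (-0.30 ± 0.17, adjusted p = 0.185). The second probe set of Eng, about as bright, differed by -0.06 for MCifngR over MC and by 0.87 for MCigeR over MC, and on the mean of both the first did not pass (0.38 ± 0.21, adjusted p = 0.161). Esam, another junction protein, read 11.37, 11.68, 11.98 and 11.34 in KitWsh_MCifngR and 11.69, 11.80, 11.66 and 11.64 in KitWsh_MCigeR OVA lungs. It read 11.42, 11.35, 11.10 and 11.41 in KitWsh_MC OVA lungs, against 11.29, 11.24, 11.92 and 11.45 in KitWsh OVA lungs. All 4 KitWsh_MCigeR arrays lay above all 4 KitWsh_MC arrays for Esam. Robo4, which stabilises vessels, read 8.26, 7.93, 8.49 and 7.82 in KitWsh_MCifngR and 8.62, 8.30, 7.83 and 8.39 in KitWsh_MCigeR OVA lungs. It read 7.56, 7.70, 7.48 and 8.18 in KitWsh_MC OVA lungs, against 8.32, 8.07, 8.31 and 8.06 in KitWsh OVA lungs. Both passed for MCigeR over MC, with small differences, and not in the other 2 comparisons (0.38 ± 0.14 and 0.56 ± 0.18). Cldn5, the main claudin of endothelial tight junctions, passed in none.

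Of the haemostasis and surface enzyme genes, thrombomodulin (Thbd), the cofactor that turns thrombin to anticoagulant use, differed in all 3. Thbd read 13.40, 13.13, 13.24 and 12.57 in KitWsh_MCifngR and 13.11, 13.10, 13.10 and 13.32 in KitWsh_MCigeR OVA lungs. It read 12.70, 11.56, 12.19 and 12.70 in KitWsh_MC OVA lungs, against 13.02, 12.88, 13.38 and 12.95 in KitWsh OVA lungs. Its differences were 0.80 ± 0.21, 0.87 ± 0.21 and -0.77 ± 0.21 for MCifngR over MC (overlapping), MCigeR over MC and MC over KitWsh (both without overlap). Gpihbp1, which carries lipoprotein lipase onto capillaries, read 8.89, 10.52, 10.72 and 9.88 in KitWsh_MCifngR and 10.80, 11.27, 10.66 and 10.54 in KitWsh_MCigeR OVA lungs. It read 10.54, 9.24, 9.59 and 10.35 in KitWsh_MC OVA lungs, against 10.61, 10.46, 11.07 and 10.81 in KitWsh OVA lungs. Gpihbp1 passed for MC over KitWsh (-0.81 ± 0.28, adjusted p = 0.0284) and MCigeR over MC (0.89 ± 0.28, adjusted p = 0.0255). Vwf read 12.46, 12.79, 13.04 and 12.59 in KitWsh_MCifngR and 12.64, 12.54, 12.58 and 12.56 in KitWsh_MCigeR OVA lungs. It read 12.46, 11.61, 12.52 and 12.58 in KitWsh_MC OVA lungs, against 12.40, 12.28, 12.62 and 12.49 in KitWsh OVA lungs. Vwf passed for MCifngR over MC (0.43 ± 0.17, adjusted p = 0.0461), and without KitWsh_MC array 2, the lowest of its group, the difference was 0.20 (adjusted p = 0.29). Ace and Plvap, a protein of vesicle and fenestral diaphragms, passed in none with 36 or 35 arrays on their probe sets of highest mean. On probe-set means Ace was lower for MC over KitWsh (-0.94 ± 0.29, adjusted p = 0.0174) and higher for MCigeR over MC (0.87 ± 0.29, adjusted p = 0.0388). Plvap read 7.66, 10.69, 10.95 and 8.83 in KitWsh_MCifngR OVA lungs, against 11.23, 8.84, 10.50 and 10.68 in KitWsh_MC OVA lungs, and without arrays 2 and 3 of the KitWsh_MCifngR group, those of doubtful label, it passed as lower (-2.07 ± 0.41, adjusted p = 0.000774). That fit left only arrays 1 and 4 in the group. Their beta-actin 3' to 5' differences were 4.81 and 3.48, against 2.26 and 2.97 in arrays 2 and 3. The part of RNA quality in this call was not tested. In that same fit Plvap was higher for MCigeR over the same KitWsh_MC arrays (0.95 ± 0.33, adjusted p = 0.0396), with 11.54, 11.46, 11.18 and 10.89 in KitWsh_MCigeR OVA lungs. Without KitWsh_MC array 2, its group's lowest at 8.84, Plvap was lower for MCifngR over MC (-1.27 ± 0.46, adjusted p = 0.0362), and it did not pass for MCigeR over MC (0.46 ± 0.46, adjusted p = 0.558).

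Among the receptors S1pr1 differed most. S1pr1 read 9.28, 9.44, 9.46 and 8.85 in KitWsh_MCifngR and 9.64, 9.03, 9.84 and 10.03 in KitWsh_MCigeR OVA lungs. It read 7.92, 7.04, 8.36 and 8.85 in KitWsh_MC OVA lungs, against 9.07, 9.51, 10.45 and 9.81 in KitWsh OVA lungs. Every KitWsh_MC array read lower than every KitWsh array (-1.66 ± 0.32, adjusted p = 0.00046, 3.17-fold) and than every KitWsh_MCigeR array (MCigeR over MC, 1.59 ± 0.32, adjusted p = 0.00172), and the lowest MCifngR array met the highest KitWsh_MC array (MCifngR over MC, 1.21 ± 0.32, adjusted p = 0.00401). Ramp2 read 11.98, 11.91, 12.30 and 11.39 in KitWsh_MCifngR and 12.32, 12.21, 11.68 and 12.10 in KitWsh_MCigeR OVA lungs. It read 11.59, 11.02, 11.15 and 11.72 in KitWsh_MC OVA lungs, against 11.90, 12.01, 12.40 and 11.85 in KitWsh OVA lungs. All 4 KitWsh_MC arrays lay below all 4 KitWsh arrays for Ramp2. Calcrl read 13.80, 13.75, 13.38 and 13.04 in KitWsh_MCifngR and 13.56, 13.65, 13.50 and 13.54 in KitWsh_MCigeR OVA lungs. It read 13.49, 13.00, 13.33 and 13.15 in KitWsh_MC OVA lungs, against 13.67, 13.73, 14.03 and 13.53 in KitWsh OVA lungs. Ramp2 and Calcrl, the 2 parts of the adrenomedullin receptor, both fell in KitWsh_MC against KitWsh lungs without overlap (-0.67 ± 0.20 and -0.50 ± 0.15), and Ramp2 was higher with MCifngR (0.52 ± 0.20) and MCigeR (0.70 ± 0.20) with overlap. Apln read 7.60, 7.37, 7.60 and 6.69 in KitWsh_MCifngR and 7.93, 7.62, 7.99 and 7.62 in KitWsh_MCigeR OVA lungs. It read 6.80, 7.31, 6.45 and 7.08 in KitWsh_MC OVA lungs, against 6.89, 7.08, 7.85 and 7.46 in KitWsh OVA lungs. Apln passed for MCigeR over MC (0.88 ± 0.25, adjusted p = 0.0138), without overlap, and Aplnr passed in none on its probe set of highest mean. On probe-set means Aplnr was lower for MC over KitWsh (-0.59 ± 0.21, adjusted p = 0.037).

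Among the transcription factors Erg and Sox18 differed. Erg read 8.82, 8.63, 9.12 and 8.22 in KitWsh_MCifngR and 8.45, 8.63, 8.58 and 8.86 in KitWsh_MCigeR OVA lungs. It read 7.84, 6.39, 7.97 and 8.42 in KitWsh_MC OVA lungs, against 8.75, 9.22, 9.94 and 9.16 in KitWsh OVA lungs. Every KitWsh_MC array lay below every KitWsh array (with 35 arrays -1.61 ± 0.33, adjusted p = 0.000811), and the differences for MCifngR and MCigeR over MC were 1.04 ± 0.33 and 0.98 ± 0.33. The other Erg probe set, with a low mean of 3.83, differed by -1.02 for MC over KitWsh but by -1.02 and -0.10 for MCifngR and MCigeR over MC. Sox18 read 9.72, 10.30, 10.71 and 9.59 in KitWsh_MCifngR and 11.05, 10.90, 10.51 and 10.61 in KitWsh_MCigeR OVA lungs. It read 9.75, 8.84, 9.11 and 9.71 in KitWsh_MC OVA lungs, against 9.67, 9.78, 10.75 and 10.06 in KitWsh OVA lungs. Sox18 was higher without overlap with MCigeR (1.41 ± 0.25, adjusted p = 0.00075), and 0.72 ± 0.25 with MCifngR and -0.71 ± 0.25 for MC over KitWsh with overlap. Fli1, Sox17 and Egfl7 passed in none of the 3 on their probe sets of highest mean. On probe-set means Sox17 was lower for MC over KitWsh (-0.72 ± 0.21, adjusted p = 0.0112). The lymphatic gene Lyve1 read 10.79, 11.12, 11.09 and 10.15 in KitWsh_MCifngR and 10.70, 10.89, 11.31 and 11.44 in KitWsh_MCigeR OVA lungs. It read 9.99, 8.91, 10.45 and 10.29 in KitWsh_MC OVA lungs, against 10.48, 10.68, 11.38 and 10.75 in KitWsh OVA lungs. Lyve1 fell in KitWsh_MC against KitWsh lungs without overlap (-0.91 ± 0.26, adjusted p = 0.00998) and was higher with MCifngR (0.88 ± 0.26) and MCigeR (1.18 ± 0.26, adjusted p = 0.0035); its other probe set differed by -0.26, -0.04 and 0.69 in these 3 comparisons in turn. The inducible adhesion genes went otherwise: Selp was 0.77 ± 0.30 and Vcam1 0.19 ± 0.14 higher in KitWsh_MC than in KitWsh OVA lungs, and neither passed with the 35 arrays. For Selp all 4 KitWsh_MC arrays, from 5.98 up, lay above all 4 KitWsh arrays, at most 5.78, and it passed without the 3 arrays of doubtful label (0.77, adjusted p = 0.0368) and on probe-set means (0.86 ± 0.22, adjusted p = 0.00541). The other 2 Vcam1 probe sets went the other way (-0.96 and -0.78).

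**Figure D3:**
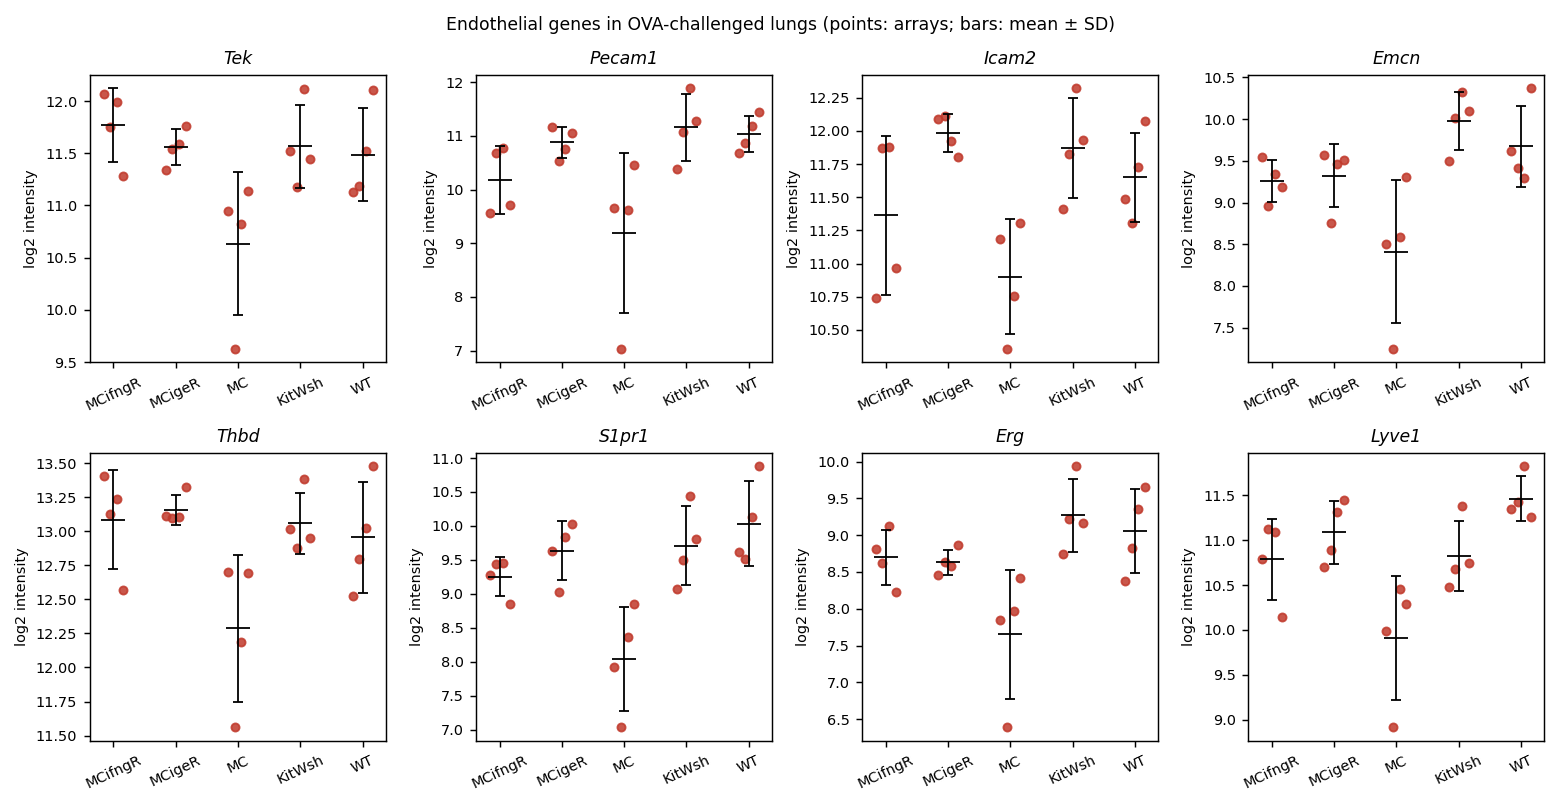
Log2 intensity of 8 members in OVA lungs, with 1 point per array and bars for mean ± SD, in KitWsh_MCifngR, KitWsh_MCigeR, KitWsh_MC, KitWsh and WT mice from left to right. For Tek, Icam2, Emcn, Thbd, S1pr1, Erg and Lyve1 all 4 KitWsh_MC arrays lie below all 4 KitWsh arrays, and KitWsh_MC array 2 is the lowest point in each panel.

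RNA quality differed between these OVA groups too. The beta-actin 3' to 5' difference was 2.21 to 6.23 in the KitWsh_MC OVA arrays, against 1.29 to 2.62 in the KitWsh OVA arrays, while it was 2.26 to 4.81 in KitWsh_MCifngR and 1.55 to 2.58 in KitWsh_MCigeR OVA arrays. The mean of the 31 members was 9.59 to 10.3 per KitWsh_MC OVA array, against 10.4 to 10.9 per KitWsh OVA array, and it was 10.0 to 10.7 with MCifngR and 10.5 to 10.7 with MCigeR. KitWsh_MC OVA array 2 had the highest control difference of its group and the lowest member mean, and the other 3 arrays, with 2.21 to 2.61, had means of 10.05 to 10.27. Without that array, 9 members were lower for MC over KitWsh, 5 higher and 1 lower (Plvap) for MCifngR over MC and 8 higher for MCigeR over MC. The medians of the members were -0.44, 0.27 and 0.52, beside 0.01, 0.15 and 0.03 over all genes. With the control difference as a covariate in the 35-array fit, 5 members were called for MC over KitWsh: Erg (-1.06), Emcn (-1.07), S1pr1 (-1.13), Pecam1 (-0.88) and Nrp1 (-0.42). In that fit 13 were called for MCifngR over MC and 6 for MCigeR over MC. Shares of all genes called are not given for the covariate fit, the fit without KitWsh_MC OVA array 2 or the fit on probe-set means. Their counts therefore cannot be set against genes at large. Without the 3 arrays of doubtful label, which include KitWsh_MCifngR OVA 2 and 3, 5 members were higher for MCifngR over MC, Tek (1.04), Emcn (0.96), Eng (0.47), Thbd (0.70) and S1pr1 (1.02), and 2 were lower, Plvap and Egfl7 (-0.41). That fit left only arrays 1 and 4 in the KitWsh_MCifngR OVA group. Of the 11599 genes 3187 were higher and 841 lower in that fit, so members were called higher less often than genes at large. Cdh5, Vwf, Ramp2, Erg, Sox18 and Lyve1 were lost there, with adjusted p from 0.0959 for Erg to 0.399 for Sox18. For MC over KitWsh 17 members then passed, where 1856 of the 11599 genes were higher and 2072 lower. Flt4 was lost (adjusted p = 0.0517), Tie1 (-0.59, adjusted p = 0.0365) joined those that were lower, and Cldn5 (0.34, adjusted p = 0.0243) and Selp were higher. For MCigeR over MC 19 passed, where 1676 of the 11599 genes were higher and 1001 lower. Plvap and Egfl7 (0.35) joined those that were higher, and Aplnr (-0.62) was lower. On probe-set means with the 35 arrays, 17 members were lower for MC over KitWsh, and Selp was higher. The 17 were all but Lyve1 of the 15 called above, with Ace, Aplnr and Sox17. For MCifngR over MC 8 were higher on that measure, without Cdh5, Eng, Erg and Lyve1 and with Nrp1 added. For MCigeR over MC 16 were, without Cdh5 and Erg and with Nrp1 and Ace added, while Selp was lower in both comparisons (-0.73 and -0.81).

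**Figure D4:**
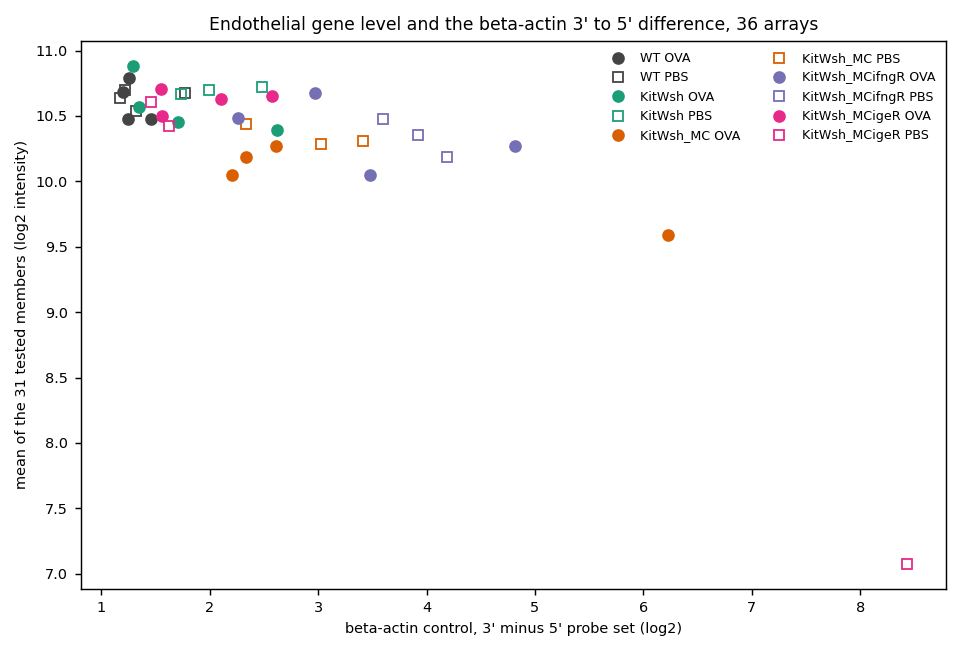
Mean log2 intensity of the 31 tested members (vertical axis) against the beta-actin 3' minus 5' control difference (horizontal axis, log2), 1 point per array for all 36, filled for OVA and open for PBS. The degraded array stands alone at 8.43 with a member mean of 7.08, and KitWsh_MC OVA array 2 is next at 6.23 with 9.59.

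For MC over KitWsh, Erg, Tek, Pecam1, Icam2, Emcn, Thbd and S1pr1 kept their calls without each of the 8 arrays in turn. The other 8 were lost without KitWsh OVA array 3, and further losses followed without KitWsh_MC OVA array 2 (Flt4, Gpihbp1, Calcrl, Ramp2, Sox18 and Lyve1), KitWsh_MC OVA array 3 (Flt4, Cdh5, Gpihbp1 and Sox18), KitWsh OVA array 4 (Flt4, Gpihbp1 and Sox18), KitWsh OVA array 2 (Flt4 and Nrp1) and KitWsh_MC OVA array 4 (Flt4). Their adjusted p reached 0.175 for Flt4, 0.168 for Sox18, 0.147 for Gpihbp1 and 0.061 for Nrp1 to 0.0781 for Lyve1. For MCifngR over MC, Tek, Eng, Thbd and S1pr1 kept their calls in all 8 omissions. Emcn, Vwf, Ramp2, Erg, Sox18 and Lyve1 lost theirs without KitWsh_MC OVA array 2 (adjusted p from 0.0743 for Lyve1 to 0.29 for Vwf), and Cdh5, Ramp2 and Sox18 without KitWsh_MC OVA array 3. Of the KitWsh_MCifngR OVA arrays, array 3 was needed for Cdh5, Emcn, Vwf, Ramp2, Erg and Sox18, array 2 for Vwf, Ramp2 and Sox18 and array 1 for Emcn and Ramp2 (adjusted p up to 0.15 for Ramp2). For MCigeR over MC, Cdh5, Icam2, Eng, Thbd, S1pr1, Apln, Sox18 and Lyve1 kept theirs in all 8. The other 8 were lost without KitWsh_MC OVA array 2, with adjusted p from 0.0603 for Pecam1 to 0.232 for Erg. Esam and Robo4 kept theirs in only 2 of 8 omissions (adjusted p up to 0.125 for Esam), Emcn and Erg also lost theirs without 3 of the KitWsh_MCigeR OVA arrays (1, 3 or 4 for Emcn, 2, 3 or 4 for Erg), and Gpihbp1 without KitWsh_MC OVA array 3 or KitWsh_MCigeR OVA array 2.

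Non-member endothelial genes also differed for MC over KitWsh in OVA lungs: of 35 tested, 11 fell and 1 rose with the 35 arrays (1 and 1 with all 36), with a median of -0.29. Clec14a fell (-1.06 ± 0.21, adjusted p = 0.000542), while Kdr did not pass (-0.07 ± 0.18, adjusted p = 0.806), nor did Bmpr2 or Efnb2. Of 8 pan-leukocyte genes 4 fell and 1 rose, of 8 fibroblast genes 3 fell, of 9 alveolar epithelial genes 1 fell, of 10 smooth muscle and pericyte genes 3 rose and of 8 cell cycle genes 4 rose; with all 36 arrays 1 pan-leukocyte gene, 1 smooth muscle gene and 2 cell cycle genes rose and 0 of the others fell. The mean log2 intensity of the alveolar epithelial list was 12.4 to 12.9 in KitWsh_MC OVA arrays, against 12.8 to 13.0 in KitWsh OVA arrays. What part of the endothelial differences goes with them was not tested.

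**Figure D5:**
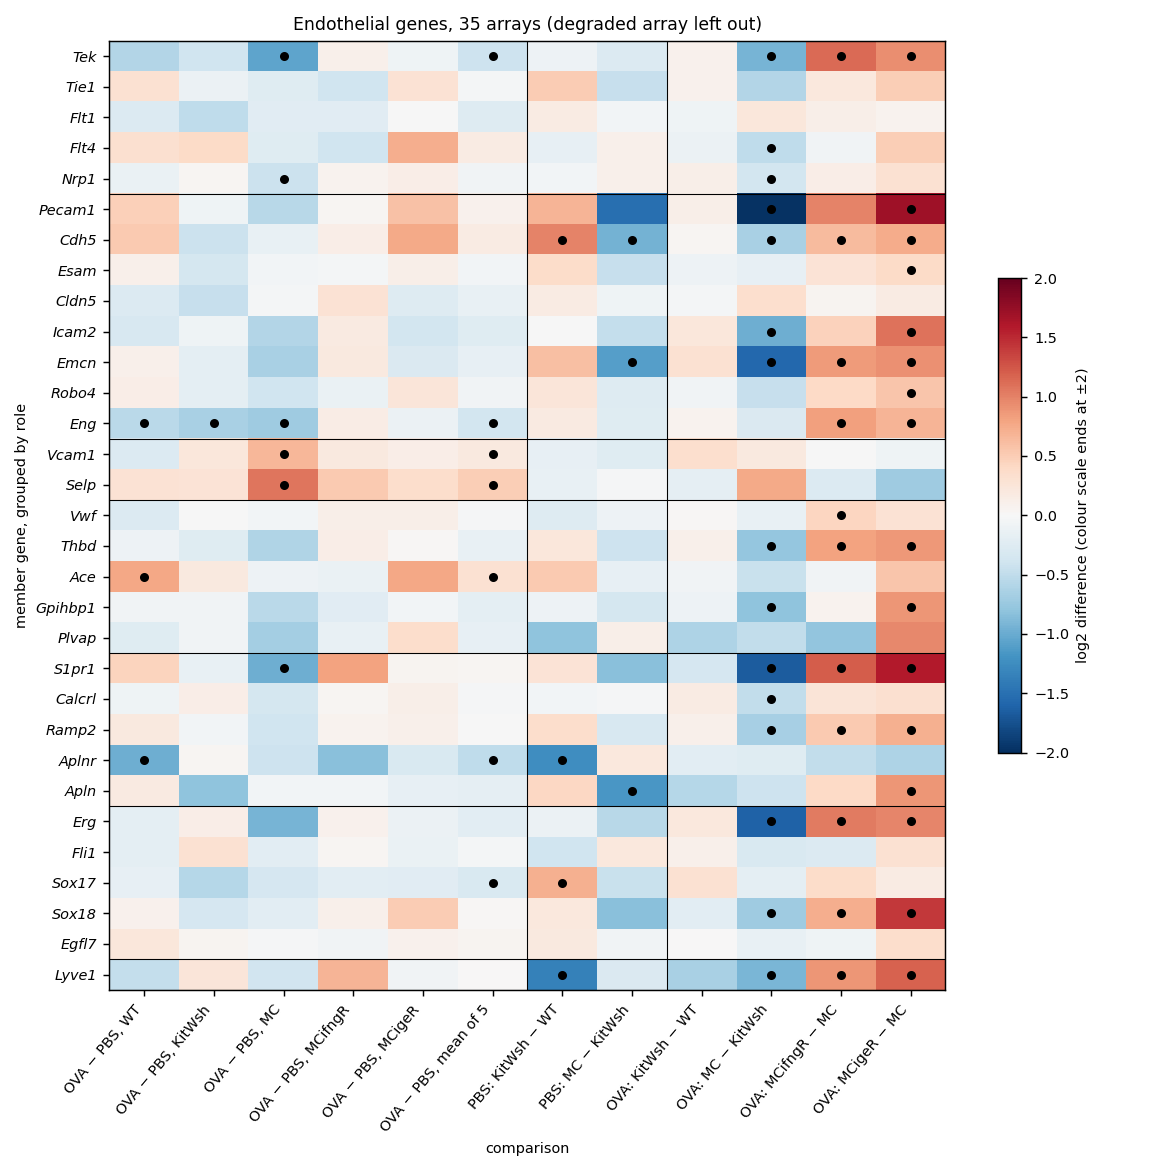
Log2 difference of the 31 tested members, grouped by role from top to bottom, in 12 comparisons from left to right, with the 35 arrays; red is higher and blue lower in the group named first, the colour scale ends at ±2, and a dot marks a call at an adjusted p under 0.05. Dots gather in the last 3 columns, which share the KitWsh_MC OVA arrays, and are few in the 6 challenge columns.

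Flt1, Cldn5, Plvap and Fli1, 4 of the 31 tested members, were called in no comparison with 36 or 35 arrays. Without the 3 arrays of doubtful label as well, Flt1 fell over the mean of the 5 kinds, Cldn5 fell over that mean and in WT and KitWsh mice but was higher for MC over KitWsh in OVA lungs, and Plvap was lower for MCifngR and higher for MCigeR over MC in OVA lungs. Without KitWsh_MC OVA array 2 alone of those 35, Plvap was also lower for MCifngR over MC. In the 35 arrays Flt1 read 9.51 to 10.9, Cldn5 11.7 to 12.7, Plvap 7.66 to 12.0 and Fli1 8.10 to 9.74. Tie1 and Egfl7 were called in the KitWsh_MCigeR challenge with all 36 arrays and in no comparison with those 35; without the arrays of doubtful label both passed among the OVA comparisons above. The KitWsh_MC and KitWsh_MCifngR groups, whose PBS arrays had control differences of 2.33 to 3.41 and 3.60 to 4.19, were also those with the lowest member means among PBS groups, 10.34 each, against 10.5 to 10.7 in the other 3 PBS groups without the degraded array.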

How the data were processed

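Whole-lung RNA was measured on 36 Affymetrix mouse genome arrays, 1 per sample. The authors deposited log2 intensities per probe set; GCRMA is the tool that the submitters' processing notes name, and no version of it was found in the labels or file headers. The files hold 45101 probe sets; 64 controls were left out, 34945 have 1 gene symbol, 932 several and 9160 none in the platform annotation. Each gene took its probe set with the highest mean. No normalization was added. The 11599 genes over log2 5 in at least 3 arrays were fitted with 10 group means in limma 3.58.1 (R 4.3.3), with Benjamini-Hochberg adjustment over all of them, and called at an adjusted p under 0.05; the procedure was tested on simulated data. Array values are given for members called in a comparison, and at most 4 genes of each other list, those with the smallest adjusted p over the mean challenge, are named, with Kdr; genes called only without the arrays of doubtful label, without KitWsh_MC OVA array 2 or on probe-set means were named after their values were seen. Members and lists were chosen with earlier results of these data known. Fits that leave out a further array, add the beta-actin covariate or average a gene's probe sets, with the degraded array already out, were chosen after seeing the data. Alternatives were another normalization, centring, filter, probe-set rule, covariate and sample set. Promoter windows are RefSeq's.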

Additional observations from a re-analysis of the deposited data

Results flagged for a closer look

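Within a group, 11 of 186 gene and group pairs held 1 array far from the rest, where chance gives about 1 in 20. Against the remaining arrays of their group, Cdh5 read 10.29 in WT PBS array 4, Emcn 8.76 in KitWsh_MCigeR OVA array 2, Selp 5.25 in WT PBS array 2 and 7.04 in KitWsh_MCifngR OVA array 4, and Vwf 11.61 in KitWsh_MC OVA array 2. Thbd read 13.32 in KitWsh_MCigeR OVA array 4, Ace 11.66 in the array labelled WT OVA 4 and 11.45 in KitWsh OVA array 3, and Plvap 11.96 in WT PBS array 1. Apln at 8.68 and Sox18 at 10.77 also stood apart in the array labelled WT OVA 4. Flt4 differed by 0.38 between OVA and PBS lungs in KitWsh mice and by -0.40 in KitWsh_MCifngR mice, with every array moving one way in each; this difference between kinds was not tested.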

How the results depend on the processing

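Counts in this paragraph and the next have no shares of all genes beside them, so they cannot be set against genes at large here. They are called members out of 31, with the number of higher calls in brackets and the rest lower. These were, with all 36 arrays, 1 (0) for KitWsh_MC over KitWsh, 1 (1) for KitWsh_MCifngR over KitWsh_MC and 0 for KitWsh_MCigeR over KitWsh_MC in OVA lungs, 0 for KitWsh over WT and 1 (0) for KitWsh_MC over KitWsh in PBS lungs, 10 (10) for the challenge in KitWsh_MCigeR mice and 0 in the other 4 kinds, and 3 (1) for the mean challenge. In that order for the 5 comparisons between kinds, repeated quantile normalization gave 5 (0), 1 (1), 1 (1), 2 (1) and 0, centring each array on its median 5 (0), 1 (1), 3 (3), 2 (1) and 0, averaging all probe sets of a gene 5 (1), 1 (0), 0, 0 and 1 (0), the beta-actin difference as covariate 3 (2), 8 (8), 1 (1), 4 (2) and 1 (0), fitting the compared groups alone 2 (0), 0, 2 (2), 9 (6) and 5 (0), and no filter on low values 0 in all 5. Leaving out the 4 doubted arrays gave 17 (2), 7 (5), 19 (18), 4 (2) and 6 (0), and with the degraded array out the covariate gave 5 (0), 13 (13), 6 (6), 6 (4) and 4 (0) and probe-set means 18 (1), 9 (8), 17 (16), 3 (1) and 4 (0). For the challenge in WT, KitWsh, KitWsh_MC and KitWsh_MCigeR mice and their mean, quantile normalization gave 0, 0, 0, 8 (8) and 4 (1), centring 0, 0, 1 (0), 9 (8) and 4 (1), probe-set means 0, 0, 2 (1), 0 and 3 (2), the covariate 1 (0), 0, 1 (1), 0 and 4 (1), no filter 0, 0, 0, 0 and 2 (0), the compared groups alone 3 (2), 1 (0), 0 and 0 (the mean uses all groups), leaving out the 4 doubted arrays 5 (1), 3 (0), 8 (2), 0 and 9 (2), and with the degraded array out the covariate 3 (1), 1 (0), 6 (2), 0 and 9 (3) and probe-set means 2 (1), 0, 6 (1), 0 and 5 (3). Probe-set means gave 1 lower call for the response difference of KitWsh_MC minus KitWsh with 36 and with 35 arrays.

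Leaving out 1 array at a time from all 36 gave 0 to 3 calls for the challenge in WT, 0 to 1 in KitWsh, 0 to 6 in KitWsh_MC, 0 in KitWsh_MCifngR and 0 to 28 in KitWsh_MCigeR mice, and 2 to 7 for the mean. It gave 0 to 4 for KitWsh over WT and 0 to 3 for KitWsh_MC over KitWsh in PBS lungs, and 0 to 15, 0 to 11 and 0 to 16 for KitWsh_MC over KitWsh and for KitWsh_MCifngR and KitWsh_MCigeR over KitWsh_MC in OVA lungs. With the degraded array also out, the ranges were 0 to 4, 0 to 3, 3 to 10, 0 to 1 and 0 for the challenge kinds, 4 to 8 for the mean, 2 to 4 and 0 to 5 in PBS lungs, 7 to 18, 6 to 13 and 8 to 18 in OVA lungs, and 0 to 4 for the response difference of KitWsh_MCifngR minus KitWsh_MC.

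Over 76 gene results, 2273 alternative values had the same direction and side of the threshold in 1322, passed it newly in 704, lost it in 234 and reversed in 13. With all 36 arrays and the covariate, KitWsh_MC over KitWsh in OVA lungs turned to 0.14 for Icam2, 0.12 for Thbd, 0.55 for Gpihbp1, 0.22 for Ramp2 and 0.50 for Sox18, and KitWsh_MCigeR over KitWsh_MC to -0.30 for Gpihbp1 and -0.067 for Ramp2. The mean challenge turned to 0.15 for Sox17 with probe-set means (0.054 with the degraded array out) and to 0.08 and 0.11 for Tek with all arrays but KitWsh_MCigeR PBS array 1 or 3. With the degraded array out, the KitWsh_MCigeR challenge turned to -0.010 for Ramp2 without PBS array 1 and -0.003052 for Egfl7 without OVA array 2; over all single omissions these ran up to 2.99 for Ramp2 and 1.70 for Egfl7, and the mean challenge of Tek from -0.45 to 0.11. Their causes were not tested. No paired analysis was possible because the groups share no replicate numbers in the labels. Detection calls were not used here, so low intensities have no measured background limit.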
